A study of Rattus norvegicus with 40 samples.

Results

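The hippocampus of 5 heterozygous Tti2 knockout rats (Tti2+/-) was compared with that of 5 wild-type rats by RNA sequencing. These 10 libraries, chosen by their tissue label, belong to a series of 40, with 10 each from the hippocampus, liver, soleus muscle and perirenal fat. All rats were of the SHR/OlaIpcv strain, the spontaneously hypertensive rat, so that wild-type rats carry the SHR background as well, and no treatment is named for either group. The knockout is 1 line in which a zinc finger nuclease made a frameshift deletion in the first exon of Tti2 in every tissue, and the controls were littermates. Because a second copy of the gene is intact, the animals model reduced dosage and not loss of Tti2. The wild-type libraries come from rats 1, 2, 3, 5 and 6 and the Tti2+/- libraries from rats 1 to 5, and equal numbers are different animals. Age and sex of the sequenced rats are not stated in the labels.

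The hippocampus holds the dentate gyrus, where granule neurons continue to be born in adult rodents, and its RNA comes from pyramidal and granule neurons, interneurons, astrocytes, oligodendrocytes, microglia and vessels together. Tti2 is a subunit of the TTT complex, with Tti1 and Telo2, which helps the large kinases of the PIKK family, among them mTOR, ATM and ATR, to fold and assemble. These kinases act in growth control and in the response to DNA damage. In bulk RNA of this kind, fewer cells of a type and less RNA per cell cannot be told apart.

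The deposited tables list 31715 Ensembl transcripts by identifier and do not pair them with gene names. A reference gene table of 47357 rat genes matched 0 of the identifiers. Tti2 itself, the cell type markers and the kinase genes therefore could not be looked up, the tissue label was not checked by markers, and no sequence is shown. As a coarser check of the label, log2 expression profiles were correlated between all libraries. Each hippocampus library had a correlation of at least 0.976 with every other hippocampus library and of at most 0.763 with any library of another tissue.

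Total estimated counts were between 19176393 and 32713126 in wild type and between 19656635 and 21069564 in Tti2+/-. Of the tabulated transcripts, 20646 reached 5 estimated counts or more in 5 or more of the 10 libraries and were tested. The total, the number of transcripts with at least 5 counts, the share of counts in the 10 most abundant transcripts and the correlation with the mean of the other libraries did not differ detectably between genotypes (two-sided exact permutation tests over all assignments to the genotypes, n = 5 and 5, p = 0.238, 0.968, 0.373 and 0.833).

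2 libraries stood apart from the rest, the first in many transcripts and the second in transcripts of liver. The first was that of wild-type rat 2, the deepest one. It had 21366 transcripts with at least 5 counts, against 20330 to 20546 in the other wild-type rats, and a correlation with the mean of the others of 0.951, against 0.969 to 0.975. Among 17986 transcripts at 1 CPM or more (CPM is the count scaled to a common library size), 1881, or 10.5%, lay over 2-fold from the median of the other libraries in this rat, 943 of them higher and 938 lower. In the other 9 libraries this share was between 2.45% and 4.89%, with wild-type rat 1 at the upper end. The share was also read in classes of transcripts set by their levels across tissues. Of 2291 transcripts at least 10-fold higher in wild-type hippocampus than in each of the other tissues, 27.6% were over 2-fold away in rat 2 (244 higher and 388 lower), against 1.96% to 8.25% in the other libraries. Of 775 transcripts at least 10-fold below another tissue, 18.8% were over 2-fold away in rat 2 (110 higher and 36 lower), against 3.23% to 7.23%. Of 779 transcripts whose levels lay within 2-fold across the 4 tissues, 2.95% were over 2-fold away in rat 2, against 1.80% to 3.72%. The main comparisons are given with and without this library.

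The second was that of Tti2+/- rat 5, and its departure was in transcripts of liver. Over all 17986 transcripts its share over 2-fold away was 3.08%, below the 4.89% of wild-type rat 1. A list of 551 transcripts was formed whose level in liver was at least 100-fold that in hippocampus, and equal lists held 268 transcripts for muscle and 297 for fat. The liver list took 0.183% of all estimated counts in Tti2+/- rat 5, against 0.0267% to 0.0298% in the other Tti2+/- rats and 42.2% to 44.7% in liver itself. Of its 551 transcripts, 393 were highest in this 1 library and 258 were more than 2-fold over the next highest library. The fat list also took more in Tti2+/- rat 5, 0.0450% against 0.0337% to 0.0373% in the other Tti2+/- rats, and the muscle list 0.0333% against 0.0319% to 0.0347%. In wild-type rat 2 the shares of the liver, muscle and fat lists were 0.0593%, 0.0759% and 0.0624%, against at most 0.0265%, 0.0340% and 0.0375% in the other wild-type rats. How liver transcripts came to be counted in these libraries was not tested.

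**Figure D1:**
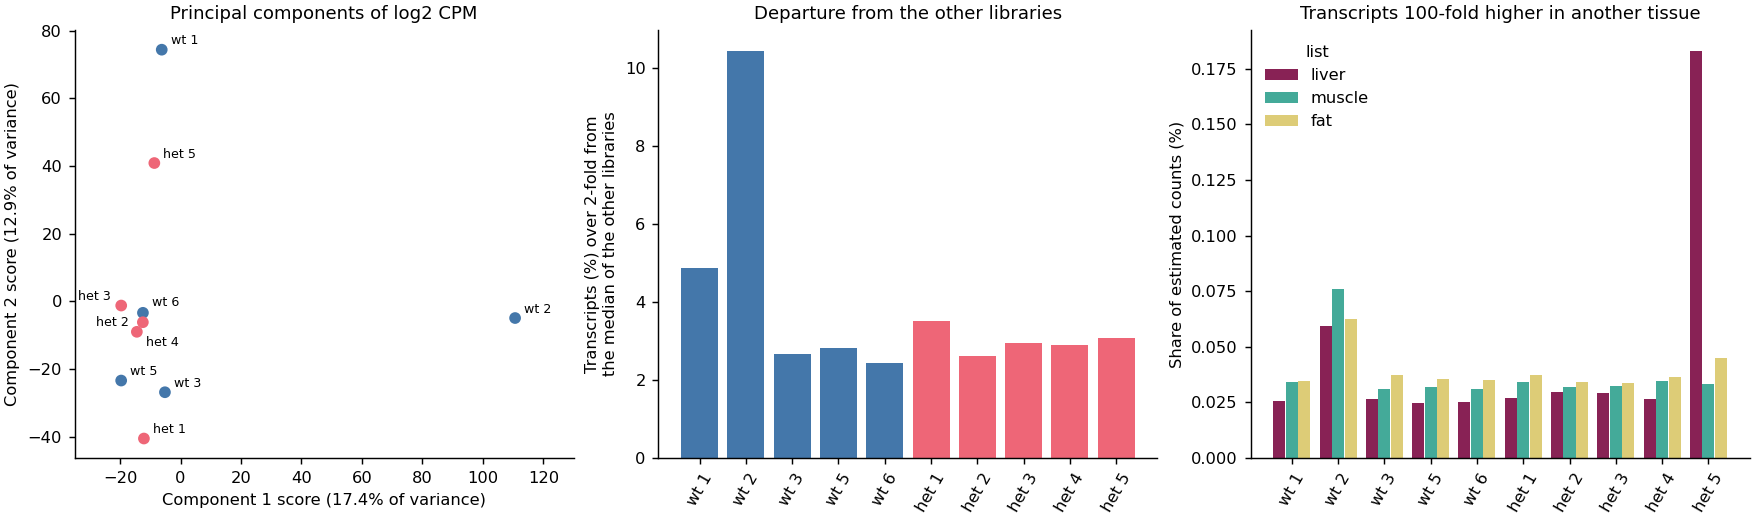
The left panel plots each hippocampus library by its scores on the first 2 principal components of log2 CPM (blue, wild type; red, Tti2+/-; numbers are rats). The middle panel gives the percentage of 17986 transcripts over 2-fold from the median of the other libraries, and the right panel the percentage of estimated counts in transcripts at least 100-fold higher in liver, muscle or fat. Wild-type rat 2 is alone on component 1 and reaches 10.5% in the middle panel, and Tti2+/- rat 5 reaches 0.183% for the liver list.

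No separation of the genotypes was detected on the main axes of variation. The first 3 principal components of log2 CPM held 17.4%, 12.9% and 11.4% of the variance, and the genotypes overlapped on each (exact permutation p = 0.238, 0.778 and 0.643). Component 1 set wild-type rat 2 at 110.6, against -19.6 to -5.15 for the other libraries, and component 2 set wild-type rat 1 and Tti2+/- rat 5 apart from the rest. Without rat 2 the genotypes still overlapped on the first 2 components and on the third (p = 0.738, 0.690 and 0.0873, n = 4 and 5, exact permutation tests). The spread between wild-type rats was larger with that library than without it. The median coefficient of variation of 17986 transcripts was 14.2% in 5 wild-type rats, 9.49% in the 4 without rat 2 and 8.89% in 5 Tti2+/- rats.

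The main question was which transcripts differ in the hippocampus when 1 copy of Tti2 is disrupted. A transcript was called where its adjusted p-value was below 0.1 and it differed by 1.5-fold or more. Of the 20646 tested, 1 met both limits, with a lower level in Tti2+/- (edgeR quasi-likelihood test with Benjamini-Hochberg adjustment, 0.00484% of those tested). None rose past this threshold. Of all tested, 4.22% had an unadjusted p-value under 0.05. With wild-type rat 2 left out, the same transcript was the only one called among 20388 (0.0049%). With Tti2+/- rat 5 also left out, 0 of 20174 were called by edgeR, 1050 (5.20%) had an unadjusted p-value under 0.05, and DESeq2 called 16. The smallest adjusted p-value was then 0.137, that of the same transcript.

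The called transcript was ENSRNOT00000032467.4, of 1923 bases. Its level in the 5 wild-type rats, in the order of rats 1, 2, 3, 5 and 6, was 16.4, 18.5, 15.8, 16.9 and 16.9 CPM. In Tti2+/- rats 1 to 5 it was 9.40, 11.0, 8.996, 9.80 and 9.18 CPM. No Tti2+/- rat reached the lowest wild-type value, and the gap between the groups exceeded the range within each. The means were 16.9 ± 1.01 CPM and 9.68 ± 0.797 CPM (SD, n = 5 each), and 12.8 and 7.34 TPM, the scale corrected for length. The log2 fold change was -0.81 (SE 0.075, 95% interval -0.97 to -0.64, edgeR adjusted p = 0.0132), which is 0.572 of the wild-type level. Omission of wild-type rat 2 gave -0.77 (edgeR adjusted p = 0.0222). Leaving out any 1 of the 10 samples kept the call, with adjusted p-values of 0.0117 to 0.0903, whereas after rat 2 had been removed a further omission kept it in 2 of 9 cases, with adjusted p-values up to 0.190.

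This transcript was lower in Tti2+/- in the other tissues too. Its log2 fold change was -0.77 in liver (edgeR adjusted p = 0.0371), -0.90 in soleus muscle (edgeR adjusted p = 0.00181) and -0.66 in fat (edgeR adjusted p = 0.337), and in each tissue all 5 Tti2+/- samples lay below all 5 wild-type samples. The hippocampal effect differed from the mean of the other 3 by -0.05 on the log2 scale (95% interval -0.26 to 0.17, limma-voom adjusted p = 0.965), so a hippocampal effect more than 0.26 larger or 0.17 smaller than that mean lies outside the interval. The samples of different tissues come in part from the same rats. The paper reports lower Tti2 mRNA in the heterozygous rats in each of these tissues. Whether ENSRNOT00000032467.4 is a transcript of Tti2 could not be looked up. The call is therefore not shown to be a response beyond the disrupted gene itself.

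The transcript with the next smallest p-value among those lower in Tti2+/- was ENSRNOT00000079106.1, of 2191 bases, which did not pass the test. Wild-type rats 1, 2, 3, 5 and 6 had 58.9, 54.6, 53.2, 54.5 and 61.0 CPM. Tti2+/- rats 1 to 5 had 45.4, 47.9, 48.9, 47.1 and 46.9 CPM. The groups did not overlap, and the Tti2+/- rats were within 4 CPM of each other. Its log2 fold change was -0.26 (SE 0.047, edgeR adjusted p = 0.934) with all samples and -0.27 (adjusted p = 0.642) without rat 2, which is short of 1.5-fold in both. DESeq2 gave an adjusted p of 0.00341 for the same difference. In liver, muscle and fat its log2 fold changes were -0.54, -0.37 and -0.27, with edgeR adjusted p-values of 0.122, 0.774 and 0.690.

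Of the transcripts higher in Tti2+/-, ENSRNOT00000085581.1, of 3515 bases, had the smallest p-value. It was tested only because it passed the filter in the 5 Tti2+/- libraries, so that it had to differ, and leaving out any of these removed it from the test. Its fold and p-values are therefore a description. Estimated counts were at or next to 0 in all 5 wild-type rats, with a highest value of 5.74e-07. In Tti2+/- rats 1 to 5 they were 54.8, 50.6, 62.2, 22.4 and 105.1, or 2.69, 2.44, 3.06, 1.04 and 5.36 CPM. The highest value was that of rat 5, the library with raised liver transcripts, and the lowest was still well above the wild-type rats. Against a floor of 3 counts per library, which is 0.133 CPM averaged over the wild-type libraries, the mean of 2.92 ± 1.56 CPM (SD, n = 5) was at least 21.9-fold higher. Its edgeR adjusted p was 0.209, or 0.469 without rat 2, limma gave 0.000623 and DESeq2 assigned none with all samples and 2.56e-09 without rat 2. Within single genotypes of the other tissues the estimated count of the same transcript rounded to 0 in some rats and not in others. In liver it rounded to 0 in 3 of 5 wild-type and 3 of 5 Tti2+/- rats, in muscle in 2 and 2, and in fat in 0 and 1. The highest liver level of this transcript was 2.10 CPM in wild type and 1.96 CPM in Tti2+/-. The kallisto program divides reads shared by similar transcripts between them, and whether this set the zeros was not tested.

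The second was ENSRNOT00000086303.1, of 3513 bases. Its level in wild-type rats 1, 2, 3, 5 and 6 was 34.7, 32.5, 35.6, 26.5 and 32.1 CPM. Tti2+/- rats 1 to 5 had 45.04, 53.6, 48.4, 51.3 and 45.4 CPM. All Tti2+/- rats lay above all wild-type rats, the closest pair being 35.6 and 45.04 CPM. The means were 32.3 ± 3.54 and 48.8 ± 3.72 CPM (SD, n = 5 each), a log2 fold change of 0.59 (SE 0.084, 95% interval 0.41 to 0.78), or 1.51-fold, with an edgeR adjusted p of 0.209. Without rat 2 the estimate was 0.59 (adjusted p = 0.490), and DESeq2 gave adjusted p-values of 6.03e-07 and 8.20e-06. In liver, muscle and fat the log2 fold changes were -0.23, -0.11 and -0.09, none past the test. The difference between the hippocampal effect and the mean of those tissues was 0.70 (95% interval 0.12 to 1.28) with an unadjusted limma-voom p of 0.0194 and an adjusted p of 0.782. These 4 transcripts were named for their p-values, so the lack of overlap between their groups is a description.

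**Figure D2:**
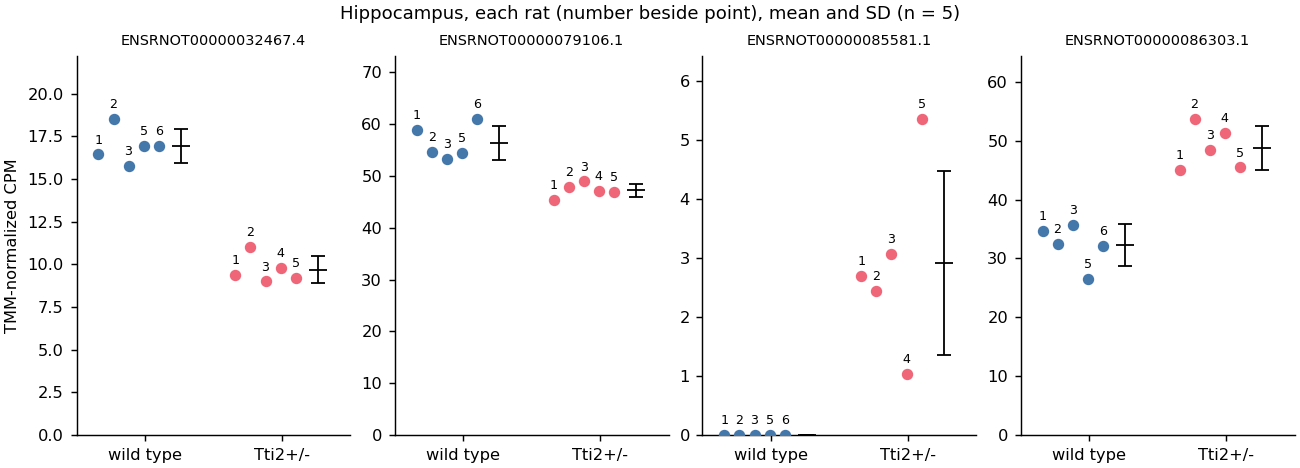
Each panel plots the level of 1 transcript (vertical axis, TMM-normalized CPM, from 0) in each hippocampus library (blue, wild type; red, Tti2+/-; numbers are rats), with the mean and SD of 5 rats to the right of the points. In all 4 the genotypes do not overlap, and ENSRNOT00000085581.1 is at 0 in the 5 wild-type rats and between 1.04 and 5.36 CPM in Tti2+/-.

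**Figure D3:**
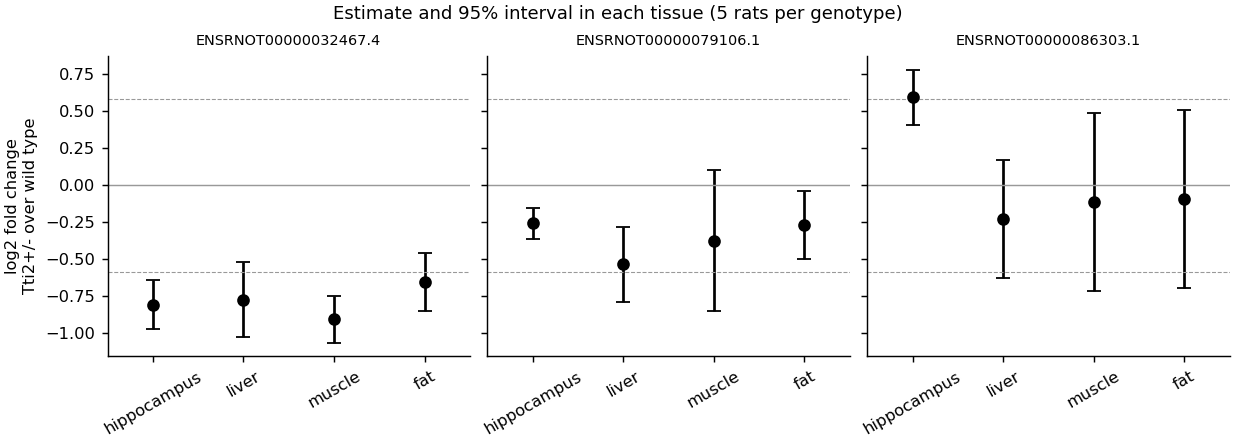
Points are the log2 fold changes of Tti2+/- over wild type with 95% intervals in each tissue (5 rats per genotype) for the 3 named transcripts present in wild-type hippocampus, with dashed lines at 1.5-fold. ENSRNOT00000032467.4 is below 0 in every tissue, from -0.66 to -0.90, whereas ENSRNOT00000086303.1 is at 0.59 in hippocampus and between -0.23 and -0.09 elsewhere.

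With the called transcript included, 871 transcripts (4.22%) had an unadjusted p-value under 0.05, 426 of them higher in Tti2+/- (2.06%) and 445 lower (2.16%). Of these, 153 of the higher and 124 of the lower differed by at least 1.5-fold, and the median size was 1.27-fold. Without wild-type rat 2 the number was 1094 (5.37%), with 506 higher (2.48%) and 588 lower (2.88%), but the number lower by at least 1.5-fold went from 124 to 52 and the median size was 1.18-fold. The transcripts in both sets numbered 571, which is 65.6% of the first and 52.2% of the second, and 296 were higher and 275 lower in both. These fits share 9 libraries. The genotypes did not overlap for 245 transcripts (1.19% of those tested), 122 higher (0.591%) and 123 lower (0.596%), and for 454 (2.23%) without rat 2, 216 higher (1.06%) and 238 lower (1.17%).

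Other tests called more transcripts, mostly higher ones with DESeq2. DESeq2 called 11 (0.0533%), of which 10 were higher in Tti2+/- (0.0484%), with log2 differences of 0.59 to 1.42. In the 9 libraries without wild-type rat 2 it called 23 (0.113%), 20 of them higher (0.0981%), and 9 were called both times. Without Tti2+/- rat 5 it called 15 of 20460 tested, 10 of them higher, and without both libraries 16 of 20174, 13 of them higher. A Wald test that takes the normal distribution as its reference, as the sleuth program does, called 7 (0.0339%), 3 of them higher (0.0145%), and 20 (0.0981%) without rat 2, 14 of them higher (0.0687%). It lacked the variance of read assignment that sleuth adds. DESeq2 and the Wald test shared 3 calls with all samples and 16 without rat 2. Each of these calls had an unadjusted edgeR p-value under 0.05, and in 8 of the 11 DESeq2 calls the groups did not overlap, against 1.19% of all tested transcripts. Since the calls were chosen for a genotype difference, both counts are a description. None of the 11 was in the liver, muscle or fat list. Only 166, 100 and 110 transcripts of these lists were among the 20646 tested, so this absence carries little information.

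**Figure D4:**
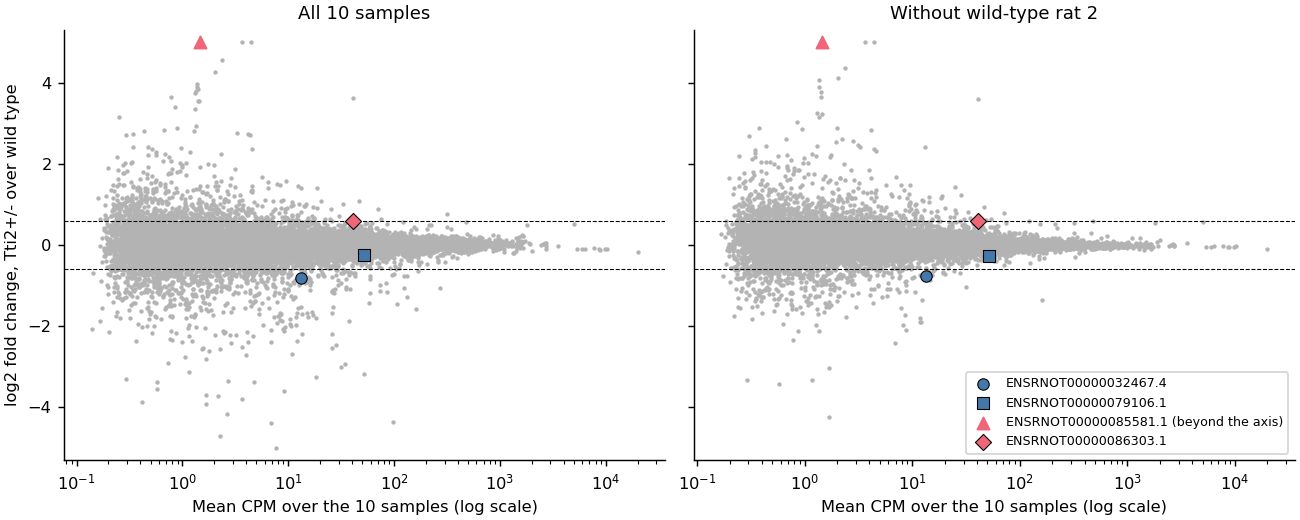
Each grey point is a tested transcript, by its mean CPM over the 10 samples (horizontal, log scale) and its log2 fold change of Tti2+/- over wild type (vertical, drawn at the edge where beyond 5), with all samples on the left and without wild-type rat 2 on the right. Dashed lines mark 1.5-fold, and the 4 named transcripts are marked. The number with an unadjusted p-value under 0.05 that were lower by at least 1.5-fold was 124 on the left and 52 on the right.

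The precision of the comparison was read from the 95% intervals of the fold changes. With all 10 samples, 12670 of the tested transcripts (61.4%) had an interval that lay wholly within 1.5-fold of no difference, and 92.9% had an estimate within it. Without wild-type rat 2 these shares were 67.1% and 94.5%. Precision rose with abundance. Under 1 CPM 0.827% of 2660 transcripts had such an interval, at 1 to 10 CPM 42.0% of 6748, at 10 to 100 CPM 86.2% of 9147, and at 100 CPM or more 92.1% of 2091. For the last class, removal of rat 2 brought the share to 98.5%. A 1.5-fold difference was therefore outside the interval for most transcripts above 10 CPM but for few of those under 1 CPM. By length, the share was 47.5% for transcripts under 1000 bases, 63.3% from 1000 to under 3000 bases and 65.0% at 3000 bases or more, and without rat 2 it was 50.6%, 68.4% and 72.9%.

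**Figure D5:**
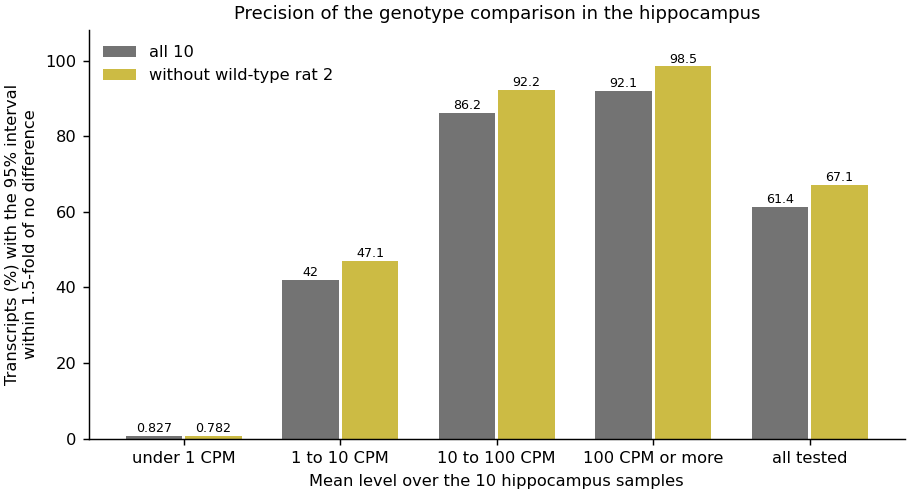
Bars give the percentage of tested transcripts whose 95% interval for the genotype difference lay within 1.5-fold of no difference, by mean level over the 10 hippocampus samples and for all tested transcripts (grey, all 10 samples; yellow, without wild-type rat 2). The share goes from 0.827% under 1 CPM to 92.1% at 100 CPM or more with all samples, and reaches 98.5% in the highest class without rat 2.

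By abundance, the share with an unadjusted p-value under 0.05 was 4.83% at 1 to 10 CPM and 4.41% at 10 to 100 CPM, near the 4.22% of all tested. At 1 to 10 CPM 191 of these were higher in Tti2+/- and 135 lower (207 and 107 without wild-type rat 2), and at 10 to 100 CPM 158 were higher and 245 lower (218 and 378). The classes were not tested against each other. At 100 CPM or more 49 of 2091 (2.34%) had such a p-value with all samples and 111 (5.31%) without wild-type rat 2, of which 87 were lower. The middle 90% of estimates over all transcripts of this class lay between -0.09 and 0.09 on the log2 scale without rat 2.

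Transcripts typical of the hippocampus were set beside all tested transcripts, which include them. The tissue classes were drawn from transcripts at 1 TPM or more. Of these, 4.16% had an unadjusted p-value under 0.05 with all samples and 5.53% without wild-type rat 2. Of the 2291 at least 10-fold over every other tissue, 83 (3.62%) had an unadjusted p-value under 0.05, against 4.22% of all tested, with 39 higher and 44 lower and a median log2 fold change of 0.03. Without wild-type rat 2 the numbers were 110 (4.81%, against 5.37% of all tested), with 52 higher and 58 lower. Their share with an interval within 1.5-fold then went from 53.3% to 72.4%. None was called by edgeR in either fit. Of the 779 transcripts at similar level in the 4 tissues, 44 (5.65%) had such a p-value and 83.4% had an interval within 1.5-fold, and without rat 2 these were 49 of 775 (6.32%) and 83.9%. The called transcript ENSRNOT00000032467.4 is one of them.

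The tissue lists were followed with and without the libraries that stood apart. Of the 551 transcripts in the liver list, 166 were tested in hippocampus. Their median log2 fold change was 0.42, and 34 (20.5%, against 4.22% of all tested) had an unadjusted p-value under 0.05, all higher in Tti2+/-. Without Tti2+/- rat 5 the median was 0.04 over 148 tested transcripts. Such a p-value was found for 10 (6.76%, against 3.69% of all tested), 9 of them higher. With wild-type rat 2 left out instead, the median was 0.52 over 153. Such p-values were found for 24 (15.7%, against 5.37% of all tested), all higher. For the muscle list the median was 0.03 over 100 tested transcripts, with 7 such p-values (7%, 2 higher). Without rat 2 it was 0.10 over 96, with 3 (3.1%, 3 higher). For the fat list the median was -0.17 over 110, with 4 (3.64%, 1 higher), and turned to 0.08 over 103 without rat 2, with 6 (5.83%, 5 higher). The shares over all tested transcripts were 4.22% with all samples and 5.37% without rat 2. Those of the fat list were near them. That of the muscle list was above with all samples and below without rat 2, on few transcripts.

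The hippocampus was set beside the other tissues in 2 ways. Over 15591 transcripts tested in every tissue, the share with an interval within 1.5-fold was 73.1% in hippocampus (76.7% of the 15523 also tested without wild-type rat 2), 66.5% in liver, 61.8% in muscle and 76.4% in fat. Unadjusted edgeR p-values under 0.05 were found for 10.2% of tested transcripts in liver, 6.85% in muscle and 6.97% in fat. In hippocampus this share was 4.22%, or 5.37% without wild-type rat 2. Calls by edgeR numbered 38 in liver (0.207%), 1 in muscle (0.00555%) and 0 in fat, where 1405 transcripts had an unadjusted p-value under 0.05. The test of whether the hippocampal genotype effect differs from the mean effect in the other tissues called 0 of 15591 transcripts (limma-voom), with 944 (6.05%) at an unadjusted p-value under 0.05 and a smallest adjusted p of 0.602. Omission of the hippocampus library of wild-type rat 2 left 0 called, 766 (4.91%) at such a p-value and a smallest adjusted p of 0.416. Among these 15591 transcripts, none was therefore shown to respond to genotype differently in the hippocampus. Transcripts that did not pass the filter in every tissue, ENSRNOT00000085581.1 among them, were not in this test. It says nothing about those found mainly in hippocampus that were left out.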

How the data were processed

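Polyadenylated, strand-specific libraries were sequenced single-end, and the authors quantified transcripts with kallisto (version 0.46.0 in the submitters' processing notes) against rat Ensembl transcripts. The deposited values used were expected counts, that is estimated counts per transcript that need not be whole, and TPM, in which the deposited tables correct each count for length and depth. TPM was used for tissue classes and levels, not in tests. Technical variance of read assignment was not used here.

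Expected counts were rounded and fitted within the hippocampus in R 4.3.3 with edgeR 4.0.16 (TMM, quasi-likelihood F-test, a single term for genotype), after a filter of at least 5 estimated counts in at least 5 samples. Adjusted p-values are Benjamini-Hochberg values over all tested transcripts, and a call needed a value under 0.1 and a 1.5-fold difference or more. Differences between tissues were tested with limma 3.58.1 (voom, with a correlation within rats estimated at 0.0195). Alternatives were DESeq2 1.42.0, limma on the natural log of normalized counts + 0.5, other size factors and filters, thinning to the lowest total, a block for rat number and samples left out. A normal Wald test, the newer edgeR adjustment and the fits without Tti2+/- rat 5 together with another change were added after the data were seen. Simulated counts were used to try the edgeR, DESeq2, limma and normal Wald fits of genotype and the limma-voom contrast between tissues.

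The comparison, the removal of wild-type rat 2 and all lists were chosen with earlier results of these data known. The tissue lists held transcripts at 10 CPM or more in another tissue and at least 100-fold the hippocampal median, and tissue classes used transcripts at 1 TPM or more in wild-type hippocampus. Lists of genes for cell types and pathways rest on gene names and were therefore left out. By rule, the 2 transcripts with the smallest p-values in each direction were named. Total counts limit precision, and 3 counts correspond to 0.0925 to 0.155 CPM. Such floors cover counting error only. Any pair of libraries within a group differed by more than sampling noise (chi-square per degree of freedom at least 6.38), so each counted as 1 replicate. Labels do not say whether the samples are from separate litters, so p-values measure the spread between these rats.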

Additional observations from a re-analysis of the deposited data

Results flagged for a closer look

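Within groups of 5 rats, 6 of 25 sets of values had 1 sample far from the others by Dixon's criterion, where chance gives about 1 in 20, or 1.25. 5 of the 6 belong to wild-type rat 2: its 21366 transcripts with at least 5 counts, its correlation of 0.951 with the mean of the other libraries, and its shares of 0.0593%, 0.0759% and 0.0624% of counts in transcripts at least 100-fold higher in liver, muscle and fat. The sixth is the share of 0.183% in the liver list of Tti2+/- rat 5. The 25 sets are related measures of the same libraries, and the causes were not tested.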

How the results depend on the processing

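With all 10 samples, 1 transcript was called with size factors from the median of ratios, with no filter, with at least 10 counts in every sample, after thinning, at an adjusted p-value under 0.05 and without a fold limit. DESeq2 called 11 (90.9% higher in Tti2+/-), limma on natural logs 2, the newer edgeR adjustment 2 and the normal Wald test 7 (42.9% higher). Leaving out 1 sample gave 1 to 2 calls. Without Tti2+/- rat 5 DESeq2 called 15 of 20460 tested (66.7% higher), and with wild-type rat 2 also left out 16 of 20174 (81.3% higher), where edgeR called 0. Without wild-type rat 2, DESeq2 called 23 (87.0% higher), limma 2 and the Wald test 20 (70.0% higher), and a further omission gave 0 to 3. The cause of these differences was not tested. Between same-numbered rats of the 2 genotypes, deviations correlated at -0.09, 0.01, 0.01 and -0.05. Such values cannot show whether same-numbered rats shared a litter or a preparation, which the labels do not state. The replicate block for that number left 0 calls in both sample sets and gave a share of intervals within 1.5-fold of 51.0%. With all samples it gave ENSRNOT00000032467.4 a log2 fold change of -0.81, with an edgeR adjusted p-value of 0.989. None of 17 alternatives turned the direction of ENSRNOT00000032467.4, ENSRNOT00000079106.1 or ENSRNOT00000086303.1. The contrast with the other tissues called 0 in its 4 alternatives. Unadjusted p-values under 0.05 numbered 672 to 1192 when 1 sample was left out, highest without wild-type rat 1 and lowest without Tti2+/- rat 3. Thinning to the lowest total gave a share of intervals within 1.5-fold of 61.2%, against 61.4%.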

Other observations

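Some transcripts could not be told apart by their values. Of the tested transcripts, 177 in 86 sets (0.857%) had deposited estimated counts exactly equal to those of another transcript in every hippocampus library.

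The number of transcripts with an unadjusted p-value under 0.05 depended on which rat was left out. It was 831 to 1192 when 1 wild-type rat was left out (831 without rat 6 and above 871 without any of the other 4) and 672 to 754 when 1 Tti2+/- rat was left out, against 871 with all 10 libraries. Without wild-type rats 1 and 2 it was 1309 of 20164 tested (6.49%), with 0 called by edgeR.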
